A study of Mus musculus with 9 samples.

Results

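The genes described here are Syt4, Syt7, Unc13a and Syngr1, which act in the release of neurotransmitter and hormone from vesicles. They are 4 of the 11046 genes in a table of RNA-seq read counts, and they were chosen by name after their levels in these libraries had been seen. Their differences between lines are therefore given as a description, with no test of significance. RNA came from 3 mouse tumour lines in culture, wild type by genotype label and untreated, with 3 libraries each (A, B and C). 482N1 is labelled a non-small-cell lung cancer line, B16F10-BrM a melanoma line with mutant BRAF, and E0771-BrM a triple negative breast cancer line. BrM stands for brain metastatic. DMEM was the medium of 482N1 and B16F10-BrM, whereas E0771-BrM grew in HEPES-buffered RPMI 1640, so for E0771-BrM line and medium cannot be told apart. All 3 lines had serum, penicillin/streptomycin and amphotericin B in their medium. By its title the series relates such transcriptomes to the electrical activity of brain around metastases, but these libraries hold tumour cells only. The labels do not say whether the libraries of a line are separate cultures, and the errors below may be technical.

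Vesicles that store transmitters or peptides dock at the plasma membrane, are primed by Munc13 proteins and fuse through SNARE proteins when calcium binds a sensor, often a synaptotagmin. Neurons use small synaptic vesicles for fast signalling, and endocrine cells use larger dense-core granules. Most other cells, tumour cells among them, use related proteins for lysosome exocytosis, secretion and membrane repair. Syt4 encodes a synaptotagmin of dense-core and Golgi-derived vesicles whose first C2 domain lacks a residue needed for calcium binding. Syt7 encodes a slow synaptotagmin of high calcium affinity that also acts in lysosome exocytosis. Unc13a encodes Munc13-1, the priming factor without which most neuronal vesicles cannot fuse, and Syngr1 encodes synaptogyrin 1, a membrane protein of synaptic vesicles.

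The 4 genes fell into different patterns. B16F10-BrM had high Syt4 and Syngr1 and almost no Syt7 or Unc13a. 482N1 had the most Unc13a, an intermediate level of Syngr1 and almost no Syt4. E0771-BrM had the most Syt7, by a small margin, and little of the other genes. The libraries held 7332390 to 9293348 counts, and levels are CPM, counts scaled to a common library total after TMM normalisation, with the SD of 3 libraries. Because RNA was extracted from many cells, a level cannot tell fewer expressing cells from less RNA per cell. Of the lineage markers in the table, 5 of 15 melanocyte genes were measured and summed to 24600 to 25500 CPM in B16F10-BrM. The epithelial keratins Krt8 and Krt18, 2 of 14 epithelial genes, summed to 7290 to 7910 CPM in 482N1, 171 to 208 CPM in E0771-BrM and at most 0.125 CPM in B16F10-BrM. Lung and mammary markers were few in the table (3 of 14 and 4 of 12). The lung markers summed to 105 to 117 CPM in 482N1 and at most 34.9 CPM in the other lines. The mammary markers were not highest in the breast line, at 50.5 to 66 CPM against 132 to 150 CPM in 482N1. Foxa1 is in both the lung and the mammary list and gave a mean of 40.3 CPM to each sum in 482N1. Areg gave 74.2 CPM to the mammary sum there. Of 20 neuron markers, 6 were measured. They summed to 335 to 360 CPM in 482N1, 175 to 211 CPM in B16F10-BrM and 855 to 913 CPM in E0771-BrM. Most of the E0771-BrM sum was Map1b (mean 429.5 CPM) and Gap43 (381 CPM). Gap43 and Celf4 were at 0 in B16F10-BrM and Map2 at 0 in E0771-BrM. Tubb3, however, was highest in B16F10-BrM, at 26.5 CPM against 0.413 CPM in 482N1 and 5.9 CPM in E0771-BrM. Eno2 was also higher in B16F10-BrM (3.94 CPM) than in 482N1 (0.424 CPM), and highest in E0771-BrM (6.28 CPM).

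**Figure D1:**
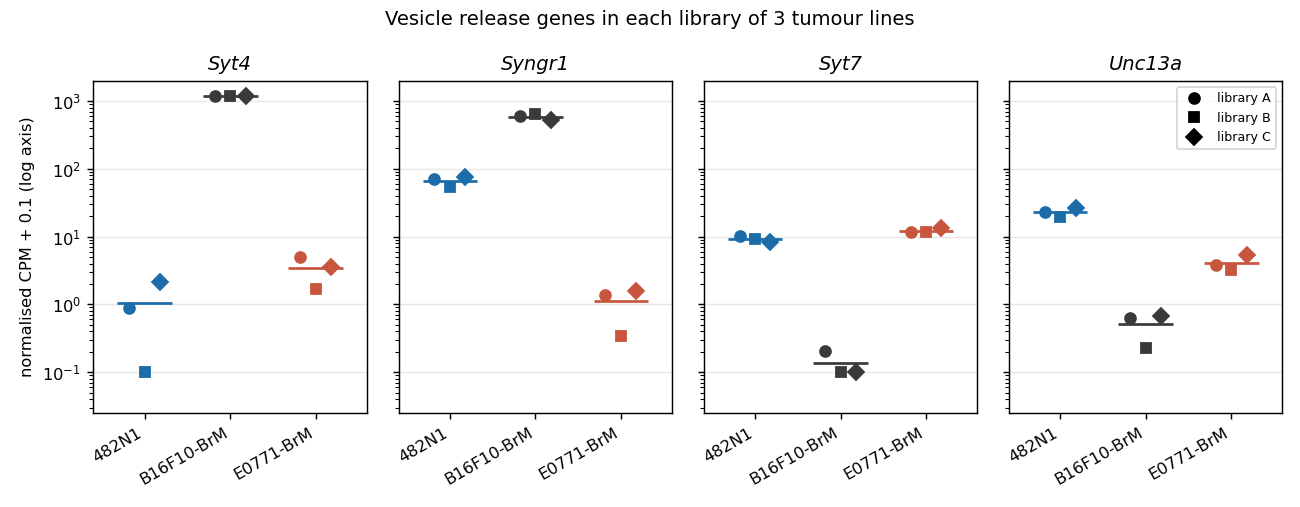
CPM of Syt4, Syt7, Unc13a and Syngr1 in each of the 9 libraries, on a log axis, with 0.1 CPM added so that libraries without a count can be drawn, and the line mean as a bar. Syt4 and Syngr1 are highest in B16F10-BrM, Unc13a in 482N1 and Syt7 in E0771-BrM, and the libraries of 482N1 and E0771-BrM overlap for Syt4 but for no other gene.

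Promoter sequence was available for Unc13a and Syngr1 in a RefSeq table for build GRCm38.p6, an earlier build than the GRCm39 that the labels name for the reads. The 250 bases before each annotated start are printed 5′ to 3′ on the strand of the gene, because these genes had opposite orders between 482N1 and B16F10-BrM. Capitals mark the GC-box GGGCGG and the short cyclic AMP response motif TGACG, each on either strand. The Unc13a stretch is chr8:71671758-71672007 on the minus strand, and the Syngr1 stretch is chr15:80091084-80091333 on the plus strand.
Unc13a: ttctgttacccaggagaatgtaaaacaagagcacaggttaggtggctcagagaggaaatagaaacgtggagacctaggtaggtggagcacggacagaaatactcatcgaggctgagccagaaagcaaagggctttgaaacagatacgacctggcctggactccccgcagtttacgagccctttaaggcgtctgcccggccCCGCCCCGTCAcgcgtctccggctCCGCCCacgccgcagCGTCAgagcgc
Syngr1: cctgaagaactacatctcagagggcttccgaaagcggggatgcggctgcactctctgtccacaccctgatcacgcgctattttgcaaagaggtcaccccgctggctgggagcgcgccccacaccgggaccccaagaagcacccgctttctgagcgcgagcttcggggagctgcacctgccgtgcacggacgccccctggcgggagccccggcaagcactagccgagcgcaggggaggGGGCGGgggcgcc
Both stretches were rich in G and C. The Unc13a stretch was 58% GC with 18 CpG dinucleotides, and the Syngr1 stretch 68.4% with 22, against medians of 52.4% and 6 over 32851 RefSeq promoters. Motifs were searched on both strands of the 300 bases from 250 before to 50 after each start. GGGCGG occurred 2 times in the Unc13a window and 1 time in that of Syngr1, and in 35.7% of all promoters. TGACG occurred 3 times in the Unc13a window, 1 of them reaching past the start and so not in capitals above, and was not found in that of Syngr1. It was present in 20.8% of all promoters. Neither window held the palindrome TGACGTCA, the E-box CACGTG, the melanocyte M-box TCATGTG, the AP-1 motif TGANTCA, the box CCAAT or the box TATAAA, which occurred in 1.79%, 7.15%, 3.77%, 7.81%, 37.4% and 13.6% of promoters. A match is a run of letters and not evidence of binding.

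The Unc13a window also held letters of the repressor element RE1, to which REST, a repressor of neuronal genes in other tissues, is known to bind. The left part, TTCAGCACC, occurs in 0.371% of promoters and the right part, GGACAG, in 22.2%. In Unc13a they lie 8 bases apart on the strand opposite to the gene, at chr8:71671727-71671749, bases 9 to 31 after the start. The 23 bases are printed here on the strand of the gene, with both parts in capitals.
Unc13a RE1 letters: CTGTCCgcgcccccGGTGCTGAA
Both parts within a gap of 12 bases or less were found in 13 of 32851 promoters, 0.0396%. This search of paired parts, its gap limit included, was made after the data were seen. Since it asks for short parts only, the share does not say how rare a full RE1 is. The Syngr1 window held 1 copy of the right part and none of the left. Rest itself had 266 ± 23.1 CPM in 482N1, 167 ± 8.62 CPM in B16F10-BrM and 257.5 ± 3.2 CPM in E0771-BrM. It was lower in B16F10-BrM than in 482N1 by a log2 difference of -0.67 ± 0.07 (SE; edgeR quasi-likelihood test with Benjamini-Hochberg adjustment, adjusted p = 3.58e-11), and for E0771-BrM against 482N1 the difference was -0.05 ± 0.07 (adjusted p = 0.57). B16F10-BrM had the least Rest and the least Unc13a. E0771-BrM had a Rest level near that of 482N1 but 5.73-fold less Unc13a. Whether REST bears on Unc13a in these cells was not tested.

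Syt4 was high in the melanoma line and close to 0 in the others. Its counts in B16F10-BrM libraries A, B and C were 11326, 9419 and 10110, or 1180, 1182 and 1178 CPM. In 482N1 they were 6, 0 and 16, or 0.774, 0 and 2.03 CPM. In E0771-BrM they were 39, 13 and 28, or 4.95, 1.56 and 3.49 CPM. Every B16F10-BrM library was far above every other library, and the other lines overlapped, since library B of E0771-BrM lay below library C of 482N1. The mean was 1180 ± 1.89 CPM in B16F10-BrM, 0.934 ± 1.02 CPM in 482N1 and 3.33 ± 1.7 CPM in E0771-BrM. The SD in B16F10-BrM is 0.16% of the mean, below the 0.986% that counting error alone would give, so the closeness of these libraries should not be read as precision. Mean CPM in B16F10-BrM was 1260-fold that in 482N1 and 354-fold that in E0771-BrM, with fitted log2 ratios of 10.30 ± 0.36 for B16F10-BrM over 482N1 and -8.47 ± 0.31 for E0771-BrM over B16F10-BrM. E0771-BrM over 482N1 was 3.57-fold, a log2 ratio of 1.83 ± 0.76. The 2 ratios to 482N1 rest on its 22 counts and on single libraries. Without library C of 482N1 they were 3040-fold for B16F10-BrM and 8.54-fold for E0771-BrM, and without its library B, which had no count, 830-fold and 2.34-fold.

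The few Syt4 counts outside B16F10-BrM were lowest in library B, as were those of some pigment genes. Dct, an enzyme of melanin synthesis, had 142, 14 and 148 counts in libraries A, B and C of 482N1 and 353, 29 and 263 in those of E0771-BrM. As a share of the mean level in B16F10-BrM, Dct stood at 0.106%, 0.00979% and 0.109% in 482N1, and Syt4 at 0.0656%, 0% and 0.172%. In E0771-BrM the shares were 0.26%, 0.0202% and 0.19% for Dct and 0.419%, 0.132% and 0.296% for Syt4. The melanosome genes Pmel and Tyrp1 were also lowest in library B, with at most 0.224% of the B16F10-BrM level and no count in library B of 482N1. Library B was thus lowest in both lines for Syt4 and for these 3 genes. The other 2 measured markers, Mitf, a master regulator of melanocytes, and the melanosome glycoprotein Gpnmb, were lowest in library B of 482N1 but nearly level in E0771-BrM. There Mitf stood at 3.75%, 3.4% and 3.23% of the B16F10-BrM level in libraries A, B and C, and Gpnmb at 2.59%, 2.32% and 2.34%. The 5 measured melanocyte markers together summed to 2.77 to 28.1 CPM in 482N1 and 103 to 162 CPM in E0771-BrM, and none of them was at 0 in either line. Their part in the low Syt4 counts was not tested. Against library B alone, Syt4 in B16F10-BrM was at least 3270-fold higher than in 482N1, taking 3 counts as the limit that a count of 0 allows, and 756-fold higher than in E0771-BrM (95% counting interval 442 to 1420). Such intervals and limits reflect counting error alone, because PCR copies of a molecule cannot be recognised in these reads.

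**Figure D2:**
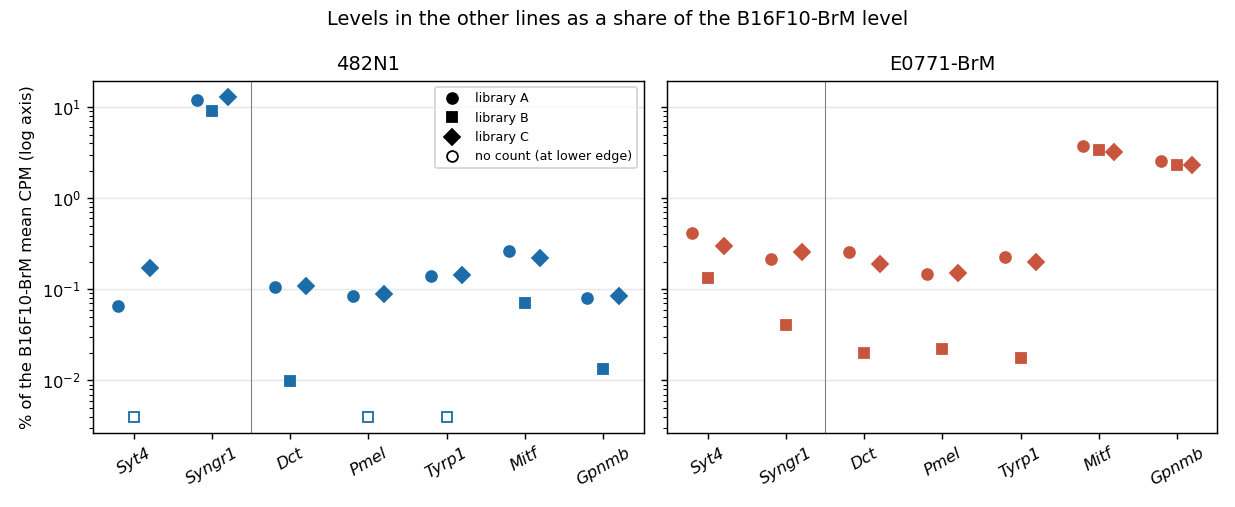
Levels in the libraries of 482N1 and E0771-BrM as a percentage of the mean B16F10-BrM level, on a log axis, for Syt4 and Syngr1 and for the pigment genes Dct, Pmel, Tyrp1, Mitf and Gpnmb, with open symbols at the lower edge for libraries without a count. Library B is lowest in each line for Syt4, Syngr1, Dct, Pmel and Tyrp1, while Syngr1 in 482N1 stands at 8.98% to 12.9%, well above the pigment genes there.

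Syt7 had the reverse pattern. Its counts were 78, 76 and 64 in 482N1 and 92, 95 and 106 in E0771-BrM, but 1, 0 and 0 in B16F10-BrM. These are 10.06, 9.15 and 8.11 CPM for 482N1, 11.7, 11.4 and 13.2 CPM for E0771-BrM and 0.104, 0 and 0 CPM for B16F10-BrM. A single read was thus all that was found of this lysosomal and slow-release sensor in the melanoma line. Over the counts, 482N1 was 238-fold above B16F10-BrM (95% counting interval 42.3 to 9440) and E0771-BrM 316-fold (56.3 to 12500). The means were 9.11 ± 0.975 CPM in 482N1 and 12.1 ± 0.98 CPM in E0771-BrM, a log2 ratio of 0.41 ± 0.19 for E0771-BrM over 482N1. The libraries of these lines did not overlap, but the lowest of E0771-BrM was only 1.13-fold above the highest of 482N1.

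Of the synaptotagmin genes, Syt4, Syt7 and Syt11 were measured. Other synaptotagmins, the fast sensor Syt1 among them, are not analysed here. Syt11, a synaptotagmin of vesicle recycling, had 15.3 ± 2.36 CPM in 482N1, 30.5 ± 2.49 CPM in B16F10-BrM and 15 ± 1.36 CPM in E0771-BrM. It was higher in B16F10-BrM than in 482N1 by a log2 difference of 1.00 ± 0.14 (edgeR adjusted p = 6.07e-09). Per kilobase of the longest coding transcript, Syt4 made up 98 ± 0.161% of the 3 genes in B16F10-BrM, 4.72 ± 5.12% in 482N1 and 14.7 ± 6.17% in E0771-BrM. Syt7 made up 0.00169%, 29.9 ± 5.79% and 32.5 ± 4% in the same order of lines. Syt11 was the largest part in 482N1 (65.4 ± 0.708%) and in E0771-BrM (52.9 ± 4.61%). Their summed level per kilobase was 309 ± 0.148 CPM in B16F10-BrM, 4.67 ± 0.672 CPM in 482N1 and 5.67 ± 0.642 CPM in E0771-BrM. The melanoma line thus differed from the other lines both in which synaptotagmin led and in the total of the measured ones.

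Unc13a was highest in 482N1, lower in E0771-BrM and lowest in B16F10-BrM, with no overlap between lines. Its counts were 179, 161 and 209 in 482N1, 29, 26 and 42 in E0771-BrM and 5, 1 and 5 in B16F10-BrM. These are 23.1, 19.4 and 26.5 CPM in 482N1, 3.68, 3.12 and 5.24 CPM in E0771-BrM, and 0.521, 0.126 and 0.583 CPM in B16F10-BrM. The means were 23 ± 3.56, 4.01 ± 1.1 and 0.41 ± 0.248 CPM in that order of lines. Mean CPM in 482N1 was 5.73-fold that in E0771-BrM and 56.1-fold that in B16F10-BrM, and E0771-BrM was 9.79-fold above B16F10-BrM. The fitted log2 ratios were -2.52 ± 0.21 for E0771-BrM and -5.72 ± 0.30 for B16F10-BrM against 482N1. The 11 counts in B16F10-BrM stood at 1.78% of the 482N1 mean, whereas the keratin Krt8, which is abundant in 482N1, stood at 0.0023% and Krt18 had no count there.

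Unc13d, which encodes Munc13-4, a priming factor of secretory lysosomes, was the other Munc13 gene measured. It had 29.6 ± 1.91 CPM in 482N1, 27.5 ± 4.61 CPM in B16F10-BrM and 11.9 ± 1.43 CPM in E0771-BrM. The difference between B16F10-BrM and 482N1 was -0.10 ± 0.13 on the log2 scale (edgeR adjusted p = 0.467), and E0771-BrM was lower than 482N1 by -1.31 ± 0.14 (edgeR adjusted p = 1.16e-11). Per kilobase, Unc13a was 23.3 ± 1.69% of the pair in 482N1, 11.8 ± 3.52% in E0771-BrM and 0.562 ± 0.319% in B16F10-BrM. The neuronal form was thus the smaller part in every line. The pair summed to 9.56 ± 0.815, 6.84 ± 1.16 and 3.34 ± 0.329 CPM per kilobase for 482N1, B16F10-BrM and E0771-BrM. In the RefSeq annotation Unc13a overlaps Colgalt1, and since it is not stated whether counting used the strand, reads of these genes may not be told apart where they overlap. Colgalt1, a collagen galactosyltransferase, had 107 ± 4.21 CPM in 482N1, 57 ± 6.77 CPM in B16F10-BrM and 242 ± 17.4 CPM in E0771-BrM, an order different from that of Unc13a.

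Of the 2 members with counts in every library, Syngr1 was spread more widely over the lines than Unc13a. Its counts were 5833, 5051 and 4523 in B16F10-BrM, 549, 440 and 598 in 482N1 and 10, 2 and 12 in E0771-BrM. These are 607.6, 633.7 and 527 CPM for B16F10-BrM, 70.8, 53 and 75.8 CPM for 482N1, and 1.27, 0.24 and 1.5 CPM for E0771-BrM. The libraries of the 3 lines formed separate levels without overlap. The means were 589 ± 55.6 CPM in B16F10-BrM, 66.5 ± 12 CPM in 482N1 and 1 ± 0.669 CPM in E0771-BrM. Mean CPM in B16F10-BrM was 8.86-fold that in 482N1 and 588-fold that in E0771-BrM, and 482N1 was 66.4-fold above E0771-BrM. The fitted log2 ratios were 3.15 ± 0.13 for B16F10-BrM and -6.05 ± 0.27 for E0771-BrM against 482N1.

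In 482N1 the Syngr1 level was 12%, 8.98% and 12.9% of the B16F10-BrM mean in libraries A, B and C, while Dct, Pmel and Tyrp1 were at no more than 0.143%. In E0771-BrM the Syngr1 shares were 0.215%, 0.0407% and 0.254%, close in size to those of Dct and also lowest in library B, and the part of the pigment-gene signal in them was not tested. With library B alone, B16F10-BrM was 11.1-fold above 482N1 (95% counting interval 10.1 to 12.3) and 2450-fold above the 2 counts of E0771-BrM (679 to 20300). Syngr2, cellugyrin, is the synaptogyrin of non-neuronal cells. It had 91.7 ± 6.74 CPM in 482N1, 102.9 ± 4.63 CPM in B16F10-BrM and 75.5 ± 1.93 CPM in E0771-BrM. Its difference between B16F10-BrM and 482N1 was 0.16 ± 0.08 on the log2 scale and was not called (edgeR adjusted p = 0.0645). It was called by the same test with upper-quartile scaling (adjusted p = 0.0122) and with the library letter as a block (0.0497). The same held without library A of 482N1 (0.031) or library C of B16F10-BrM (0.0436). Per kilobase, Syngr1 was 67.5 ± 1.13% of the pair in B16F10-BrM, 20.9 ± 3.7% in 482N1 and 0.484 ± 0.326% in E0771-BrM. The neuronal form was the larger part in the melanoma line and not in the others. The pair summed to 209 ± 16.3, 76.3 ± 4.39 and 49.9 ± 1.13 CPM per kilobase in the same order.

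**Figure D3:**
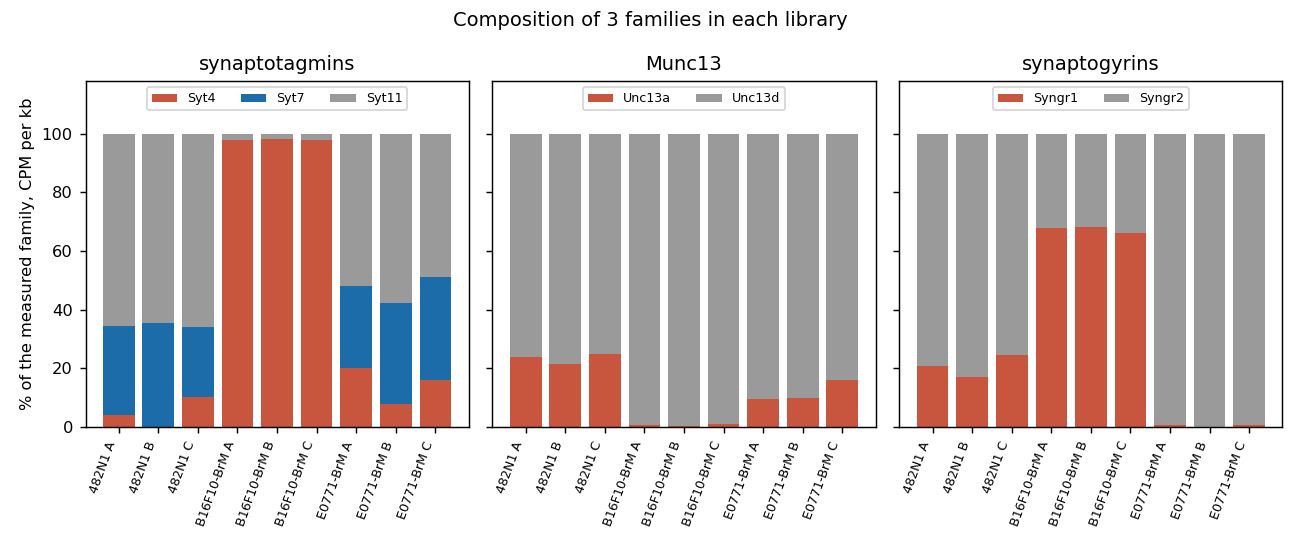
Share of each gene in the measured members of its family, in percent of the summed CPM per kilobase, for the synaptotagmins, Munc13 genes and synaptogyrins in each of the 9 libraries. Syt4 fills almost the whole synaptotagmin bar in B16F10-BrM, Unc13d is the larger part of the Munc13 pair in every library, and Syngr1 exceeds Syngr2 in B16F10-BrM only.

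Set on one scale of CPM per kilobase, the members differed in level as well as in pattern. In B16F10-BrM, Syt4 stood at 303.1 and Syngr1 at 141 CPM per kilobase, above 97.7% and 95.5% of the 10168 genes with a known length. Syt7 at 0.00524 and Unc13a at 0.0399 CPM per kilobase stood above 1.96% and 2.81% of genes there. In 482N1, Syngr1 was at 15.9, Unc13a at 2.24, Syt7 at 1.38 and Syt4 at 0.24 CPM per kilobase, above 68.8%, 21.5%, 13.9% and 2.53% of genes. In E0771-BrM the highest of them, Syt7, was at 1.83 CPM per kilobase, above 20% of genes. Syt4 at 0.856, Unc13a at 0.391 and Syngr1 at 0.24 CPM per kilobase followed. Among 95 measured genes of vesicle release, Syt4 and Syngr1 ranked 3 and 5 in B16F10-BrM, while in E0771-BrM the highest member, Syt7, ranked 68.

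Of the 12 differences between lines of these 4 genes, 11 had libraries that did not overlap, the exception being Syt4 between E0771-BrM and 482N1. Among all 11037 genes tested, libraries did not overlap for 78.7% between B16F10-BrM and 482N1, 78.5% between E0771-BrM and 482N1 and 75.5% between E0771-BrM and B16F10-BrM. Since the members were chosen on these levels, nothing is read from their count.

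The rest of the release machinery was described with 8 lists of 198 genes, of which 91 besides the members were measured. SNAP-25, synaptophysin, synaptotagmin 1 and complexin 1 are among those not analysed here. Between B16F10-BrM and 482N1, 77 of the 91 were called at an adjusted p below 0.05 (84.6%, against 77.8% of all genes), 29 higher in B16F10-BrM (38% of all genes were) and 48 lower (39.9%). Their median log2 difference was -0.401, against -0.0361 for all genes. Between E0771-BrM and 482N1, 76 were called (83.5%, against 78.1%), 22 higher in E0771-BrM (37.7% of all genes) and 54 lower (40.4%), with a median of -0.561 against -0.044. Between E0771-BrM and B16F10-BrM, 71 were called (78%, against 73.7%), 30 higher in E0771-BrM (37.2%) and 41 lower (36.5%), with a median of -0.191 against 0.0179. These comparisons share libraries and are not independent. In all 3, the share of release genes called was somewhat above that of genes at large, a difference that was not tested, and lower calls outnumbered higher ones. A fitted log2 ratio of at least 5 in size was found for 7, 4 and 11 of the 91 genes in the same order of comparisons, and for 5.1%, 4.36% and 6.01% of all genes.

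**Figure D4:**
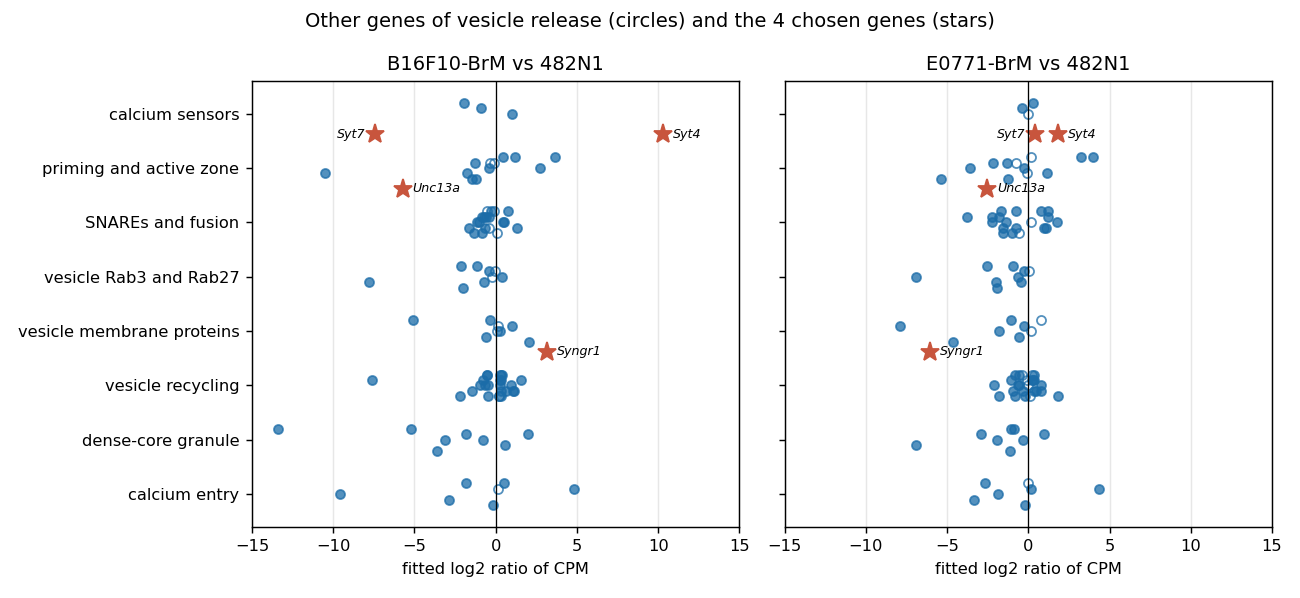
Fitted log2 ratio of CPM against 482N1 for each other measured gene in 8 lists of vesicle release (circles, filled where the gene was called at an adjusted p below 0.05 and open where not) and for Syt4, Syt7, Unc13a and Syngr1 (stars), in B16F10-BrM on the left and E0771-BrM on the right. Most circles lie within 5 of 0 on the log2 scale, Syt4 stands at 10.30 on the left and 1.83 on the right, and points of genes with 0 or 1 count in a line depend on the fit and are not bounds.

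The priming and active zone list, to which Unc13a belongs by function, had 12 other genes measured of 29. Against 482N1, 4 were higher in B16F10-BrM and 6 lower, where 38% of all genes were higher and 39.9% lower. Rims2, an active zone scaffold that binds Rab3 and Munc13-1, had 26.7 ± 1.43 CPM in B16F10-BrM, 4.09 ± 1.44 CPM in 482N1 and 0.326 ± 0.246 CPM in E0771-BrM. Its log2 difference between B16F10-BrM and 482N1 was 2.70 ± 0.20 (edgeR adjusted p = 4.78e-17), so that it was highest where Unc13a was lowest. Erc2, another active zone scaffold, had 22 ± 3.12 CPM in 482N1 and 48.9 ± 2.77 CPM in E0771-BrM. It had no count in B16F10-BrM, and was at least 193-fold higher in 482N1 and at least 426-fold higher in E0771-BrM against 3 counts over the group. Stxbp2, or Munc18-2, a SNARE partner in granule release of epithelial and blood cells, had 111.5 ± 5.53 CPM in 482N1, 40.5 ± 8.68 CPM in B16F10-BrM and 2.7 ± 0.896 CPM in E0771-BrM.

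Of 19 measured SNARE and fusion genes, 4 were higher and 11 lower in B16F10-BrM against 482N1, beside 38% and 39.9% of all genes. For E0771-BrM against 482N1 it was 6 and 11, beside 37.7% and 40.4%. The shares called in either direction were 78.9% and 89.5%, against 77.8% and 78.1% of all genes. The vesicle SNARE Vamp2, which is shared by neurons and endocrine cells, had 16.2 ± 1.9 CPM in 482N1, 9.9 ± 1.29 CPM in B16F10-BrM and 3.43 ± 0.749 CPM in E0771-BrM. Snap23, the form of SNAP-25 that most cells use, had 58.3 ± 4.25, 23.1 ± 2.05 and 29.5 ± 1.71 CPM in the same order. Stx3, an apical and granule syntaxin, was highest in E0771-BrM at 52.8 ± 5.29 CPM, with 22.5 ± 2.37 CPM in 482N1 and 12.8 ± 2.27 CPM in B16F10-BrM. Both differences of Stx3 from 482N1 were called, at log2 ratios of 1.23 ± 0.12 and -0.82 ± 0.14 (edgeR adjusted p = 1.01e-12 and 9.04e-07).

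The Rab3 and Rab27 list, small GTPases of secretory vesicles with their partners, had 9 of 20 genes measured. In B16F10-BrM 1 was higher and 6 were lower than in 482N1, at a median of -0.74, and in E0771-BrM none was higher and 8 were lower, at a median of -0.97. Of all genes, 38% were higher and 39.9% lower in the first comparison, and 37.7% and 40.4% in the second. Between E0771-BrM and B16F10-BrM 3 were higher and 3 lower, at a median of 0.08, beside 37.2% and 36.5% of all genes. Rab3a had 29.2 ± 3.55 CPM in 482N1, 7.18 ± 0.988 CPM in B16F10-BrM and 7.55 ± 1.26 CPM in E0771-BrM. Rab27b, a granule-docking GTPase, had 20.4 ± 2.16 CPM in 482N1 and 2 counts in B16F10-BrM, a ratio of 266 (95% counting interval 73.4 to 2210). Mlph, melanophilin, which ties Rab27a on melanosomes to myosin, had 289 ± 13.4 CPM in B16F10-BrM, 222 ± 7.18 CPM in 482N1 and 1.84 ± 1.1 CPM in E0771-BrM. Its log2 difference between E0771-BrM and 482N1 was -6.92 ± 0.15 (edgeR adjusted p = 8.6e-36).

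Vesicle membrane proteins, the class of Syngr1, had 8 other genes measured of 29. In B16F10-BrM 3 were higher and 3 lower than in 482N1, beside 38% and 39.9% of all genes. In E0771-BrM none was higher and 6 were lower, beside 37.7% and 40.4%. The secretory carrier membrane proteins Scamp1 and Scamp5 had the order of lines of Syngr1. Scamp1 had 107 ± 3.43 CPM in B16F10-BrM, 53.1 ± 4.08 CPM in 482N1 and 0.205 ± 0.0682 CPM in E0771-BrM. Scamp5 had 26.4 ± 0.631, 6.49 ± 1.43 and 0.251 ± 0.222 CPM in the same order. The differences between E0771-BrM and 482N1 were -7.91 ± 0.23 and -4.63 ± 0.40 on the log2 scale (edgeR adjusted p = 7.23e-33 and 8.96e-15). Synapsin 1, Syn1, which tethers synaptic vesicles, was low in every line, with 44 counts for 482N1, 76 for E0771-BrM and 1 for B16F10-BrM.

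Dense-core granule genes, among which Syt4 acts, had 8 of 22 measured, and all 8 were called in each comparison, where 77.8%, 78.1% and 73.7% of all genes were. In B16F10-BrM 2 were higher and 6 lower than in 482N1, with a median of -2.47, and in E0771-BrM 1 was higher and 7 were lower, with a median of -1.10. In E0771-BrM against B16F10-BrM 5 were higher and 3 lower, with a median of 0.83. Of all genes, 38% were higher and 39.9% lower in the first comparison. The shares were 37.7% and 40.4% in the second, and 37.2% and 36.5% in the third. The medians of all genes were -0.0361, -0.044 and 0.0179 in that order. Ptprn, the granule membrane protein IA-2, had 167 ± 11.6 CPM in 482N1 and 80.3 ± 6.06 CPM in E0771-BrM. B16F10-BrM held no read of it, so that its level there was at least 1450-fold and 701-fold lower. Pam, which amidates peptide hormones, had 329 ± 3.03 CPM in 482N1, 149 ± 7.88 CPM in E0771-BrM and 26.9 ± 2.57 CPM in B16F10-BrM. Cpe, the carboxypeptidase of prohormone processing, had 999.5 ± 68.6 CPM in 482N1, 287 ± 5.63 CPM in B16F10-BrM and 134 ± 10.6 CPM in E0771-BrM. Bdnf, a neurotrophin stored in granules, had 29 ± 4.64, 0.748 ± 0.578 and 16 ± 2.81 CPM in 482N1, B16F10-BrM and E0771-BrM. Ica1, a partner of Rab2 on granules, was 1 of the 2 genes higher in B16F10-BrM than in 482N1. It had 47.7 ± 6.77 CPM in B16F10-BrM, 31.8 ± 3.89 CPM in 482N1 and 0.251 ± 0.222 CPM in E0771-BrM. The other was Vat1, with 42.4 ± 3.82, 10.5 ± 1.4 and 20.3 ± 1.37 CPM in the same order of lines. Vat1 was also the 1 gene higher in E0771-BrM than in 482N1.

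Calcium entry and vesicle recycling were measured for 7 of 16 and 25 of 33 genes. Of the calcium entry genes, 2 were higher and 4 lower in B16F10-BrM than in 482N1, with the same counts for E0771-BrM. Cacna1a, the P/Q-type channel that triggers release at many synapses, had 13.6 ± 2.47 CPM in 482N1, 3.79 ± 0.151 CPM in B16F10-BrM and 2.15 ± 0.347 CPM in E0771-BrM. Cacna2d1, an auxiliary channel subunit, had 994 counts in 482N1, 271 in E0771-BrM and 1 in B16F10-BrM, and 482N1 was 1090-fold above B16F10-BrM (95% counting interval 194 to 42900). Recycling genes moved both ways, 12 higher and 10 lower in B16F10-BrM against 482N1, and 9 and 11 in E0771-BrM. Beside both lists, 38% of all genes were higher and 39.9% lower in B16F10-BrM, and 37.7% and 40.4% in E0771-BrM. The scaffold Itsn2 was highest in E0771-BrM at 400.1 ± 28.2 CPM, with 113 ± 9.92 CPM in 482N1 and 140 ± 2.44 CPM in B16F10-BrM. The other measured genes of the calcium sensor list were Syt11 and the extended synaptotagmins Esyt1 and Esyt2, lipid-transfer tethers that are no release sensors. A place on this list does not show that a gene, Syt11 included, encodes a calcium sensor.

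The genes whose pattern was most like that of each member were found by the root mean square (RMS) difference of log2 CPM over the 9 libraries, each gene centred on its own mean. For Syt4 these were Pmel (0.759), Tyrp1 (0.832), Dct (0.883), the xylosyltransferase gene Gxylt2 (1.25) and Sox11 (1.34), a transcription factor of neural and neural crest development. The nearest 3 are all pigment genes with the same low library B as Syt4, described above. For Syt7 they were Ptgs2os2 (0.202), Arsj (0.241), Sdr39u1 (0.252), Pxdc1 (0.258) and Rnf183 (0.266), and all 5 had 0 CPM in B16F10-BrM. For Unc13a they were the urokinase receptor gene Plaur (0.288), the laminin gene Lama5 (0.359), Prickle3 (0.36), the AP-1 gene Junb (0.384) and Zbtb4 (0.408). Plaur, for example, had 56.8 ± 5.81 CPM in 482N1, 11 ± 0.757 CPM in E0771-BrM and 1.63 ± 0.828 CPM in B16F10-BrM. For Syngr1 they were the fatty acid-binding gene Fabp5 (0.413), Ppargc1a (0.657), Atp6v0e2 (0.783), Scrn1 (0.803) and Psrc1 (0.821). Fabp5 had 734 ± 35.9 CPM in B16F10-BrM, 80.9 ± 0.451 CPM in 482N1 and 1.64 ± 1.63 CPM in E0771-BrM, close to Syngr1 in each line.

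None of the nearest genes was in the 8 release lists. The lists held only 91 of the 11037 genes tested, so nothing is read from this. Outside the lists, Scrn1 encodes secernin 1, known from exocytosis in mast cells, and Atp6v0e2 a subunit of the proton pump that acidifies vesicles. These rankings depend on the measure: of the 5 genes, 3 for Syt4, 2 for Syt7, 2 for Unc13a and 3 for Syngr1 were shared when the prior count was 0.5 in place of 2. With Pearson correlation 1, 0, 0 and 2 were shared. Among the members, Syt7 and Unc13a were most alike, at an RMS difference of 1.36, followed by Syt4 and Syngr1 at 3.67, and Syt4 and Syt7 were the least alike at 7.06.

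The nearest genes along the chromosome, 2 measured on each side by RefSeq gene order, were set beside each member after the data were seen. The sharpest contrast was between Syt4 and Celf4, the farther of the 2 measured genes on its side, with Pik3c3 between them. Genes were taken by order alone, whatever their distance. Celf4, a neuronal RNA-binding protein, had 84.4 ± 10.1 CPM in 482N1 and 68.1 ± 1.99 CPM in E0771-BrM. B16F10-BrM, where Syt4 was highest, held no read of Celf4, which places it at least 738-fold and 594-fold lower. Pik3c3, Slc25a46 and Sap130, the other neighbours, differed by at most 1.43 on the log2 scale in size. The neighbours of Syt7, which are Tmem258, Dagla, Sdhaf2 and Cpsf7, were all lower in B16F10-BrM than in 482N1, with fitted log2 differences between -0.683 for Sdhaf2 and -0.999 for Dagla, far less than Syt7. Dagla, which makes an endocannabinoid, had 11.9 ± 1.57 CPM in 482N1, 5.95 ± 0.37 CPM in B16F10-BrM and 15.5 ± 1.99 CPM in E0771-BrM.

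Beyond the start of Unc13a lie Jak3 and B3gnt3, and both were low in B16F10-BrM as Unc13a was. The neighbours on the other side, Niban3 and the overlapping Colgalt1, differed less between B16F10-BrM and 482N1. Their log2 differences were -1.47 and -0.90, with Niban3 at no more than 2.04 CPM in any line and Colgalt1 highest in E0771-BrM. Jak3, a kinase of cytokine receptors, had 6.62 ± 1.39 CPM in 482N1, 0.185 ± 0.111 CPM in B16F10-BrM and 5.11 ± 1.22 CPM in E0771-BrM. B3gnt3, a glycosyltransferase, had 39.9 ± 4.9, 0.918 ± 0.419 and 20.2 ± 1.26 CPM in the same order. Between B16F10-BrM and 482N1 their log2 differences were -5.01 ± 0.45 and -5.42 ± 0.21 (edgeR adjusted p = 2.92e-14 and 1.12e-27), beside -5.72 for Unc13a. In E0771-BrM, B3gnt3 was lower than in 482N1 by -0.98 ± 0.13 and Jak3 was not called (-0.37 ± 0.25, edgeR adjusted p = 0.166), beside -2.52 for Unc13a. Of the 4 genes around Syngr1, which are Cbx7, Rpl3, Tab1 and Mgat3, none was highest in B16F10-BrM. Mgat3, a glycosyltransferase, had 30.8 ± 7.33 CPM in 482N1, 1.86 ± 1.18 CPM in B16F10-BrM and 0.0416 ± 0.072 CPM in E0771-BrM.

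**Figure D5:**
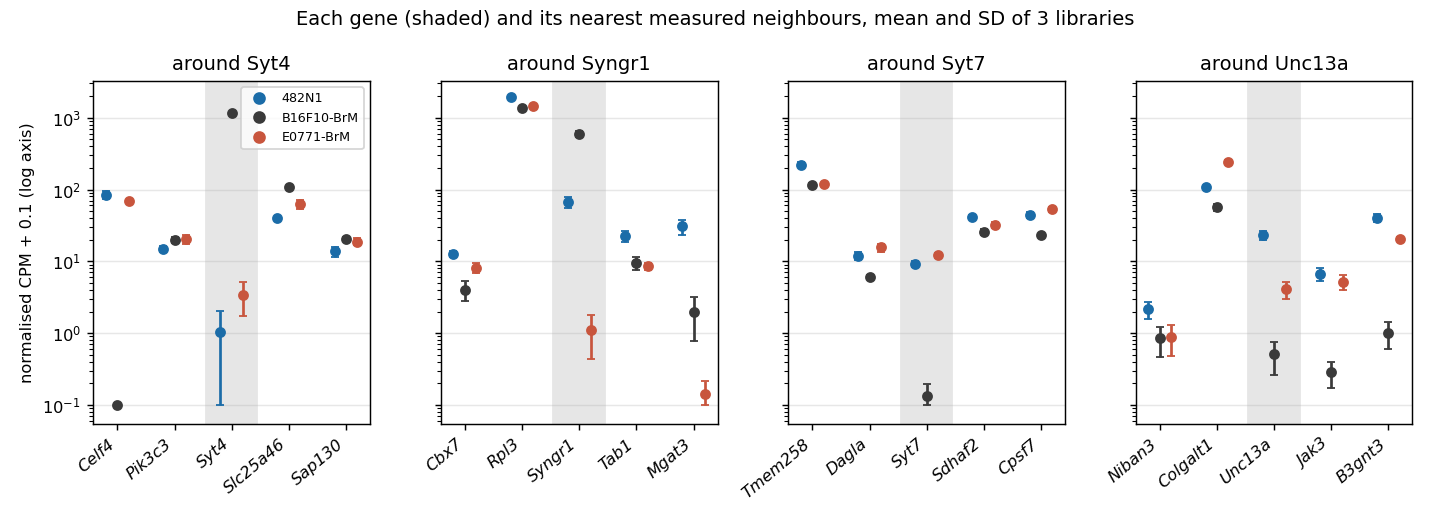
CPM of each member (shaded) and of the 2 nearest measured genes on each side along the chromosome, in order, as mean and SD of 3 libraries per line on a log axis with 0.1 CPM added and error bars ended at 0 CPM. Celf4, the farther measured gene on its side of Syt4, is at 0 in B16F10-BrM, and no gene around Syngr1 is highest in B16F10-BrM. Jak3 and B3gnt3, on one side of Unc13a, are low in B16F10-BrM as Unc13a is, while Niban3 and Colgalt1 differ less between B16F10-BrM and 482N1.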

How the data were processed

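RNA-seq of 9 libraries was analysed, 3 for each of 3 cell lines. The authors deposited raw counts of reads per gene symbol. Per the submitters' processing notes, the build was GRCm39 and the tools were TopHat2 2.0.10, Cufflinks 2.2.1, Bowtie 1.0.0, SAMtools 0.1.19 and FastQC. The counting tool, annotation, strand setting and selection of genes are not given in the sources used here.

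The counts were fitted with edgeR 4.0.16 in R 4.3.3: filterByExpr kept 11037 of 11046 genes, totals were scaled by TMM, and 1 coefficient per line was fitted to all 9 libraries with robust quasi-likelihood dispersions. Pairs of lines were compared by 2-sided quasi-likelihood F tests, with Benjamini-Hochberg adjustment over all genes at 0.05. A called gene is one below this threshold. The SE is the log2 ratio divided by the square root of F. The procedure was tried on simulated data with few genes changed, which does not show how it performs where most genes differ, as between these lines. Members and lists were chosen with earlier results of these data known. Members got no test, and named ratios of counts have 95% exact conditional intervals. Lengths are the longest protein-coding transcripts of GENCODE M21, and 10783 symbols matched RefSeq. Likeness between genes was taken on log2 CPM (prior count 2).

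Named genes were the members, their paralogues, the 3 called genes of largest change and the highest of each release list, the 5 genes nearest to each member, and markers beside a result. Chromosomal neighbours, Rest, Vat1 and the paired RE1 letters were added after the data were seen. Alternatives were DESeq2 1.42.0 (size factors or test), limma-voom (limma 3.58.1), upper-quartile scaling, other filters, removal of ribosomal RNA genes, a replicate block by library letter, each library left out, only library B of 482N1 and E0771-BrM, and only the lines compared. Letters were not used to pair the samples in the main fit. Over all genes, deviations of same-lettered libraries from their line means correlated at -0.00992 to 0.0898, and those of different-lettered libraries at -0.0752 to 0.037.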

Additional observations from a re-analysis of the deposited data

How the results depend on the processing

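Of 220 log2 ratios of members under alternatives, none changed sign and 214 moved by less than the spread between libraries (the SDs of log2 CPM of both lines combined, or, for Syt7 against B16F10-BrM, the counting interval). The 6 past that spread all came from the setting that kept library B alone in 482N1 and E0771-BrM, with the spread of single libraries taken from B16F10-BrM. There Syt4 went to 16.30 (B16F10-BrM over 482N1, fitted against 0 counts and no bound), 6.75 (E0771-BrM over 482N1) and -9.55 (E0771-BrM over B16F10-BrM), and Syngr1 to 3.48, -7.70 and -11.18. By a stricter measure, 14 of the 220 moved by over 1.5-fold. Besides 5 from that setting, these were the ratios of Syt4 to 482N1 with limma-voom (11.32 for B16F10-BrM and 2.72 for E0771-BrM), without library B of 482N1 (9.70 and 1.22) and without its library C (11.57 and 3.09). The other 3 were of Syt7 against B16F10-BrM without its library B or C, where a mean over fewer libraries raises the weight of 1 read. For Syt7 against B16F10-BrM these are ratios of mean CPM, not fitted ratios. They were not taken with DESeq2, limma-voom or the replicate block. Without library A of B16F10-BrM no count of Syt7 was left there, so no ratio was taken, and 1 count sets its limit. The counts of called genes stayed within 1.5 times: with the replicate block they were 8595, 8623 and 8162, and among release genes 78, 77 and 71. Over all genes, same-lettered libraries correlated at -0.00992 to 0.0898 and different-lettered ones at -0.0752 to 0.037. Such correlations would not show a shared difference confined to few genes. Library B was lowest in both 482N1 and E0771-BrM for Syt4, Syngr1, Dct, Pmel and Tyrp1, and what the letters share was not tested. Over all settings the release calls ranged from 70 to 78, 61 to 77 and 63 to 74. Levels moved by over 1 SD in 5 of 48 cases: Syt4 in B16F10-BrM became 1207, 1248 or 1395 CPM with upper-quartile factors, plain totals or totals without ribosomal RNA, and with the last Syt7 in E0771-BrM became 14.1 and Syngr1 in B16F10-BrM 697 CPM. Of 3757 ratios of other named genes, 62 lost their call, 8 gained one and none of those called in the main fit changed sign. Vat1 was not among these genes. In the 150 bases before the start, 2 copies of TGACG and none of the RE1 parts were found for Unc13a, and none of the RE1 right part for Syngr1.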
